A study of Mus musculus with 2 samples.

Results

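The 10 named genes of the R-spondin branch of WNT signaling described here were followed through the developing mouse gastroesophageal squamo-columnar junction (GE-SCJ), where the stratified squamous epithelium of the esophagus meets the columnar epithelium of the stomach. They were the 3 R-spondin ligands *Rspo1*, *Rspo2* and *Rspo3*, the 3 receptors *Lgr4*, *Lgr5* and *Lgr6*, and the 4 feedback genes *Znrf3*, *Rnf43*, *Axin2* and *Notum*. They were chosen by name, and all 10 of 10 were among the 19550 genes measured. The cells came from wild type C57BL/6 mice with no treatment, and from 3 regions (esophagus, GE-SCJ and stomach). Each region was sampled at embryonic day 15 (E15), at E19, in pups on day 2 and in adults of 8 weeks, except that adult stomach cells were not analysed here. Cells of several mice (6 at E15, 2 at E19, 2 for pups and 3 for adults) were pooled under 1 tag per region and stage, so each of the 11 tagged groups was 1 sample.

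In total 7808 cells with 107865155 unique molecular identifiers (UMIs, each 1 captured transcript) were analysed, with 143 to 1403 cells and 2302227 to 20070615 UMIs per group. Levels are given as CPM, the usual scaling of the UMIs of a gene, summed over a group of cells, to the sum of all UMIs of those cells, with an exact 95% Poisson interval in parentheses. With 1 sample per group no difference between conditions could be tested, and the intervals cover counting error only, not the spread between mice or between cells. The deposited annotation gave each cell 1 of 9 labels, and the marker genes listed for a label were highest in that label for 36 of 39 markers over 8 labels. The 3 exceptions were *Postn* among stromal markers, *Msln* among second stromal (mesothelial) markers, and *Cdh17* among columnar markers, which is an intestinal gene and stood at 0.555 CPM in columnar cells. Cells differed in depth. The median was 25118 UMIs per cell in columnar, 12028.5 in squamous, 8940 in stromal and 8266.5 in immune cells, and stromal cells of the pup esophagus had a median of 3859.

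R-spondins are secreted proteins that bind Lgr receptors and, through them, the membrane ubiquitin ligases Znrf3 and Rnf43, which otherwise remove Frizzled WNT receptors from the cell surface. A cell that receives an R-spondin therefore keeps more Frizzled receptor and responds more strongly to WNT. *Znrf3*, *Rnf43*, *Axin2* (a scaffold of the β-catenin destruction complex) and *Notum* (an enzyme that removes the lipid from WNT) are themselves switched on by β-catenin in many tissues and dampen the signal. In the adult stomach, *Lgr5* marks cells at the base of the glands, and R-spondin 3 from myofibroblasts beneath the glands acts on the gland base.

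The ligands were highest in mesenchymal labels, the receptors *Lgr4* and *Lgr5* were highest in columnar cells, and the feedback genes were divided between epithelium and mesenchyme. *Rspo3* stood at 102 CPM (95.7 to 108) in smooth muscle cells, 87.9 in the second stromal label and 39 in stromal cells, against 1.04 in columnar, 0.887 in squamous and 0.797 in immune cells. *Rspo2* stood at 6.96 CPM (6.09 to 7.93) in stromal cells, which held 87.9% of its UMIs, and *Rspo1* at 326 CPM (296 to 358) in second stromal cells, which held 57.9% of its UMIs and only 1.24% of all UMIs. Among receptors, *Lgr4* stood at 98.7 CPM (95.8 to 102) in columnar cells and at 28.3 to 48.9 in neural, smooth muscle, squamous, second stromal and stromal cells. Squamous cells (45.8, 41.7 to 50.2) did not exceed neural (48.9) or smooth muscle cells (46.4) in it. *Lgr5* stood at 15 CPM (13.9 to 16.2) in columnar and 6.01 (4.6 to 7.72) in squamous cells, against 2.92 (1.46 to 5.23) in immune cells. *Lgr6* was near the limit of detection, with 52 UMIs in all cells and at most 1.57 CPM in any label. Smooth muscle cells held 32.7% of its UMIs and 10.1% of all UMIs, and squamous cells 25% and 9.41%. Stromal cells held 30.8% and 30.1%, and columnar cells 3.85% and 40.1%. Its level was 1.57 CPM (0.913 to 2.51) in smooth muscle, 1.28 (0.682 to 2.19) in squamous and 0.493 (0.282 to 0.801) in stromal cells.

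**Figure D1:**
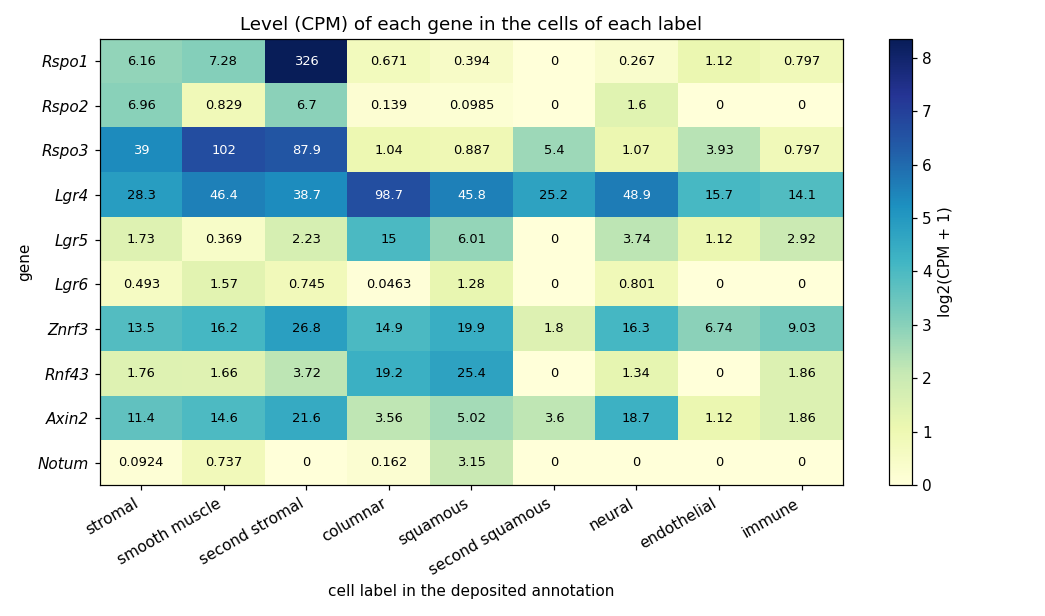
Level of each of the 10 genes (rows) in the cells of each label (columns), all regions and stages together. Numbers are CPM and color is log2(CPM + 1); *Rspo1* in second stromal cells at 326 CPM is the highest value, and the *Rnf43* row is at 19.2 and 25.4 CPM in columnar and squamous cells and at most 3.72 elsewhere.

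The feedback genes did not share 1 pattern over the labels. *Rnf43* was at 25.4 CPM (22.4 to 28.7) in squamous and 19.2 (18 to 20.6) in columnar cells, and at most 3.72 in every other label. *Axin2* had the opposite order, with 21.6 CPM in second stromal, 18.7 in neural, 14.6 in smooth muscle and 11.4 in stromal cells, against 5.02 in squamous, 3.56 in columnar and 1.86 in immune cells. *Znrf3* was found in epithelium and mesenchyme alike, at 13.5 CPM in stromal, 14.9 in columnar, 16.2 in smooth muscle, 16.3 in neural, 19.9 in squamous and 26.8 in second stromal cells. It was lower in immune (9.03) and endothelial cells (6.74, 3.48 to 11.8), and the 40 cells with the second squamous label held 1 UMI (1.8, 0.05 to 10). *Notum* was rare, with 50 UMIs in 27 cells, of which squamous cells held 32. The log2 ratio of columnar over stromal cells, all groups together, was 3.43 (3.05 to 3.84) for *Rnf43*, 0.15 (-0.03 to 0.32) for *Znrf3* and -1.67 (-1.95 to -1.39) for *Axin2*.

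Shares of cells with at least 1 UMI did not follow the order of the levels for every gene. Deeper cells show a gene more often, so each share is given as measured and again after thinning each cell to 5000 UMIs, which left out 1135 shallower cells. Immune cells are given as the comparison, but they were not empty of each gene. Over the 8 immune groups *Lgr4* ranged from 3.43 to 56.4 CPM (10 UMIs in 30 cells of the pup GE-SCJ) and *Znrf3* reached 26.7 CPM (7 UMIs in 38 cells of the E19 esophagus). *Rspo3* was seen in 41.6% of smooth muscle (29.4% thinned), 41.7% of second stromal (30.8% thinned) and 19.8% of stromal cells (13.1% thinned), against 0.565% of immune cells (0.791% thinned). *Rspo1* was seen in 89.2% of second stromal cells (77.5% thinned), or 124 of 139. *Lgr4* was seen in 81.6% of columnar cells (38% thinned) and 41.9% of squamous cells (23.3% thinned), against 11.9% of immune cells (5.53% thinned). *Lgr5* was seen in 18.8% of columnar cells (6.38% thinned), or 289 of 1540, against 2.54% of immune cells (1.19% thinned). *Rnf43* and *Axin2* had higher levels in squamous than in columnar cells, though the *Axin2* intervals overlapped (3.74 to 6.61 against 3.02 to 4.17 CPM). Both were seen in more columnar cells, at 36.3% against 23.5% for *Rnf43* and 8.25% against 6.38% for *Axin2*. After thinning the order of both shares turned, but the intervals overlapped. For *Axin2* the thinned share was 2.49% (1.37 to 4.14) in squamous and 1.61% (1.04 to 2.39) in columnar cells. The thinned share of *Rnf43* was 11.7% (9.18 to 14.7) in squamous, 10.3% (8.78 to 11.9) in columnar and 0.748% in stromal cells. The last could not be told apart from the 0.791% (0.0959 to 2.83) of immune cells.

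*Rspo3* (chr10:29452416-29535867, minus strand, GRCm38) separated the 3 regions in the prenatal stroma, with the GE-SCJ highest. In E15 stromal cells it was at 27.6 CPM (22.5 to 33.4) in the esophagus, 78 (69.3 to 87.4) in the GE-SCJ and 36.7 (30.8 to 43.3) in the stomach. At E19 the values were 2.87 (1.75 to 4.43), 60.7 (54.4 to 67.4) and 33 (28.7 to 37.7). In pups they were 78 (57.7 to 103), 117 (85.6 to 156) and 85.1 (60.2 to 117). The interval of the GE-SCJ lay above both neighbours at E15 and at E19 and overlapped both in pups. In adults, the 15 stromal cells of the GE-SCJ held 9 UMIs (76.8 CPM, 35.1 to 146) and the 31 of the esophagus held none, for which 3 UMIs would be 18.6 CPM. Of those 15 cells, 8 lay among prenatal cells by their expression, and without them 1 UMI was left in 7 cells (33.7 CPM).

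These differences between regions, which were compared after the values were seen, went with differences in the share of positive cells. In the E15 GE-SCJ 141 of 350 stromal cells held *Rspo3* (40.3%, 26.2% thinned), against 42 of 347 in the esophagus (12.1%, 8.39% thinned) and 71 of 360 in the stomach (19.7%, 12% thinned). At E19 the counts were 199 of 588, 13 of 739 and 132 of 701. The log2 ratio of GE-SCJ over esophagus was 1.49 (1.17 to 1.83) at E15, 4.34 (3.70 to 5.05) at E19 and 0.58 (-0.02 to 1.19) in pups. Over the stomach it was 1.08 (0.79 to 1.38), 0.88 (0.63 to 1.13) and 0.45 (-0.19 to 1.10). In the E19 esophagus 1 cell held 6 of the 20 UMIs, and leaving out the top 1% of cells for this gene gave 0.726 CPM.

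From E15 to pups, stromal *Rspo3* of the esophagus was by summed CPM lowest at E19 and higher in pups than at E15. The adult level, with no UMI, could not be ranked against E19. The esophageal log2 ratio was -3.21 (-3.96 to -2.52) for E19 over E15 and 4.73 (3.96 to 5.54) for pup over E19. The same steps were -0.36 (-0.59 to -0.13) and 0.97 (0.50 to 1.42) in the GE-SCJ, and -0.16 (-0.47 to 0.16) and 1.40 (0.87 to 1.90) in the stomach. The 2 steps of a region share its E19 cells. In pups the stromal cells were shallow. In the esophagus 117 of 151 had under 5000 UMIs, and the share with *Rspo3*, 21.2% unthinned, was 1 of 34 cells (2.94%) after thinning, so no order of shares was read there. The higher CPM of the pup esophagus was thus not seen in its few deeper cells.

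**Figure D2:**
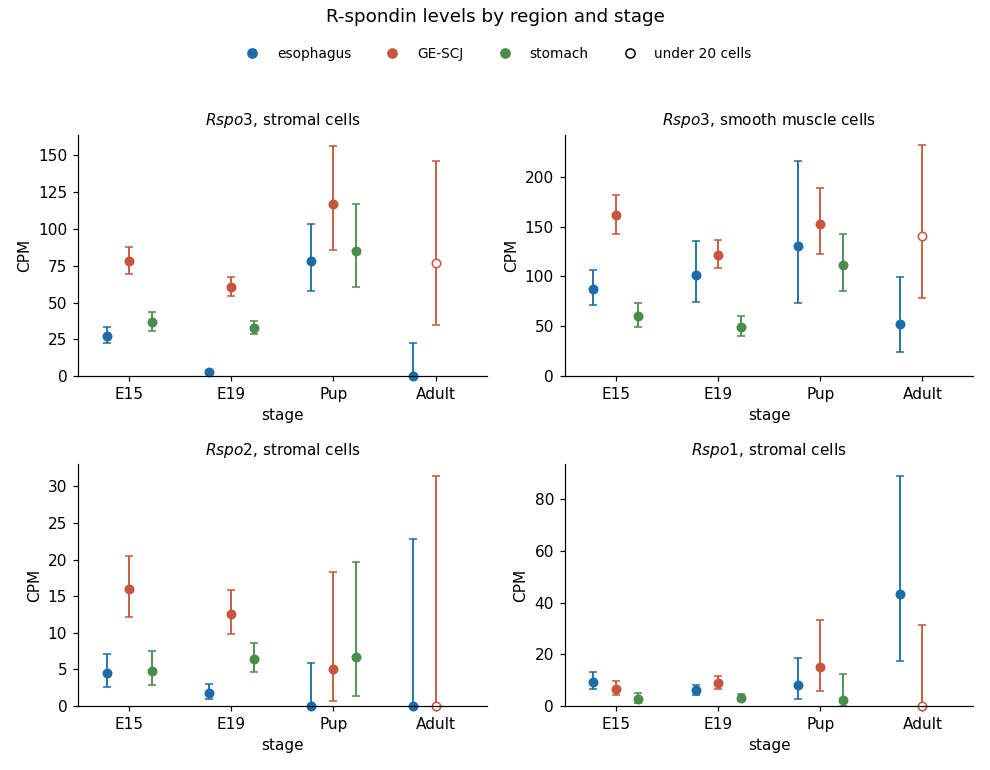
CPM (y axes, linear) of *Rspo3* in stromal and smooth muscle cells, and of *Rspo2* and *Rspo1* in stromal cells, by stage (x axes) and region (colors). Points are pooled groups, bars are 95% Poisson intervals, open points are groups of under 20 cells, and groups of under 10 cells are not drawn. The red GE-SCJ points of *Rspo3* lie at 78 and 60.7 CPM in E15 and E19 stroma, above blue and green.

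In smooth muscle cells *Rspo3* was higher than in stroma throughout and again highest in the GE-SCJ. The esophagus stood at 87.3 CPM at E15, 102 at E19, 131 in pups and 52.5 in adults. The GE-SCJ stood at 161 (143 to 181), 122 (108 to 136), 153 (122 to 188) and, in 16 adult cells, 140. The stomach stood at 60.5, 49.7 and 111. At E15 the GE-SCJ exceeded the esophagus by 0.87 (0.54 to 1.22) and the stomach by 1.40 (1.07 to 1.75) on the log2 scale, and at E19 it exceeded the stomach by 1.28 (0.94 to 1.63), while its difference from the E19 esophagus was 0.23 (-0.21 to 0.70). Over stroma and smooth muscle in 3 stages, *Rspo3* of the GE-SCJ was above the neighbouring region in 12 of 12 comparisons, and the interval lay above 0 in 7 of them. These comparisons share the GE-SCJ cells.

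Stromal and smooth muscle cells were compared within each tagged group with at least 20 cells of each and at least 20 UMIs of the gene. Smooth muscle cells had more *Rspo3* than stromal cells in 9 of 9 such groups, with 6 intervals that excluded 0 and log2 ratios of stroma over muscle from -5.11 to -0.37. *Rspo2* had the reverse order in 4 of 4 groups with enough UMIs, with 3 intervals above 0 and log2 ratios from 0.42 to 3.81. *Lgr4* was higher in muscle in 9 of 9 groups (5 intervals) and *Axin2* in 7 of 7 (1 interval). With under 20 UMIs, *Lgr4* was at 0.09 in the adult esophagus. *Axin2* was at 0.37 there, 0.32 in the pup stomach and -1.45 in the pup esophagus. Each of these intervals included 0.

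*Rspo2* (chr15:43020794-43170826, minus strand) was mainly a stromal transcript, and within prenatal stroma it was highest in the GE-SCJ. In E15 stroma it was at 4.46 CPM (2.6 to 7.14) in the esophagus, 15.9 (12.1 to 20.5) in the GE-SCJ and 4.71 (2.79 to 7.45) in the stomach. At E19 the values were 1.72 (0.888 to 3), 12.6 (9.85 to 15.9) and 6.35 (4.58 to 8.59). The GE-SCJ interval stood clear of both neighbours at both stages, with log2 ratios over the esophagus of 1.78 (1.00 to 2.62) and 2.78 (1.91 to 3.75), and over the stomach of 1.70 (0.94 to 2.53) and 0.97 (0.41 to 1.55). Positive cells were 46 of 350 (13.1%, 7.72% thinned) at E15 and 65 of 588 (11.1%, 6.68% thinned) at E19, against 0% of immune cells. In pups only 0, 2 and 3 UMIs were counted in stroma of esophagus, GE-SCJ and stomach, where 0 UMIs in the esophagus allow 4.78 CPM at 3 counts. Second stromal cells had a like level of 6.7 CPM (3.07 to 12.7) from 9 UMIs in 139 cells, of which 6 lay in the E19 GE-SCJ (11.7 CPM, 4.29 to 25.4) and 3 in the pup stomach (15.3 CPM, 3.15 to 44.7).

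Some prenatal stromal cells held both ligands, in the GE-SCJ and in its neighbours. At E15, 25 stromal cells of the GE-SCJ had UMIs of *Rspo2* and of *Rspo3*. These were 54.3% of its *Rspo2* cells and 17.7% of its *Rspo3* cells. At E19, 27 cells did, or 41.5% and 13.6%. Of all GE-SCJ stromal cells, 141 of 350 held *Rspo3* at E15 and 199 of 588 at E19. In the E15 stomach 7 of 12 *Rspo2* cells (58.3%) also held *Rspo3*, beside 71 of all 360 stromal cells. In the E19 stomach 11 of 39 (28.2%) did, beside 132 of 701. In the E15 esophagus 3 of 15 (20%) did, beside 42 of 347. In the E19 esophagus 0 of 10 *Rspo2* cells also held *Rspo3*. Only 13 of all 739 stromal cells held *Rspo3* there, so 10 cells were too few to show an overlap. With cells thinned to equal depth, *Rspo3* was 0.95 (0.12 to 1.70) higher on the log2 scale in *Rspo2*-positive than in *Rspo2*-negative stromal cells of the E15 GE-SCJ, and 0.33 (-0.14 to 0.78) higher at the cells' own depth. In the E19 GE-SCJ the values were 0.50 (-0.34 to 1.24) and 0.19 (-0.27 to 0.63), so 3 of the 4 intervals included 0. The mesothelial marker list was higher in the *Rspo2*-positive stromal cells at equal depth, by 2.09 (0.27 to 3.65) at E15 and 1.58 (0.02 to 2.88) at E19, from 4 and 5 UMIs in positive cells. At their own depth it was 0.71 (-0.62 to 1.86) and 0.54 (-0.55 to 1.49). The equal-depth UMIs of positive cells were 2 of *Wt1*, 1 of *Upk3b* and 1 of *Msln* at E15. At E19 all 5 were of *Wt1*, while *Upk3b*, *Msln* and *Lrrn4* had 0, so the E19 value is that of 1 gene.

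*Rspo1* (chr4:124986430-125009099, plus strand) marked the second stromal label, whose listed markers are those of mesothelium, the lining of the organ surface. In the groups with at least 4 such cells it ranged from 221 CPM (4 cells, E15 esophagus) to 514 CPM (27 cells, pup stomach). The GE-SCJ had 280, 308 and 244 CPM at E15, E19 and in pups, and the stomach 302, 305 and 514. The interval of the pup stomach (419 to 625) lay above that of the pup GE-SCJ (169 to 341), the E19 GE-SCJ (262 to 360) and the E15 stomach (229 to 390), and overlapped that of the E19 stomach (215 to 420.3). These cells also held *Rspo3*, since 49 of their 124 *Rspo1*-positive cells had UMIs of it, which is 84.5% of the 58 *Rspo3*-positive ones and 39.5% of the *Rspo1*-positive ones. Over all 139 cells 89.2% held *Rspo1* and 41.7% held *Rspo3*, so the overlap was close to these shares.

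In the main stromal label *Rspo1* was low, and lowest in the stomach. The stomach held 2.62 CPM (1.26 to 4.82) at E15, 2.87 (1.73 to 4.49) at E19 and 2.24 in pups. The esophagus held 9.45 (6.62 to 13.1), 6.02 (4.34 to 8.13) and 7.96 (2.59 to 18.6), and the GE-SCJ 6.37 (4.08 to 9.47), 8.74 (6.49 to 11.5) and 15.2 (5.59 to 33.2). The stomach interval lay below that of the esophagus at E15 and below that of the GE-SCJ at E19, and the other intervals of a stage overlapped. Adult esophageal stroma had 7 UMIs in 5 of 31 cells, which is 43.3 CPM (17.4 to 89.3).

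Comparison of stomach with esophagus stroma showed where ligands differed between the 2 organs. A gene was counted as different when it had at least 20 UMIs over both groups and differed by at least 2-fold. At E15, 1 of 6 members with enough UMIs differed, beside 8.29% of all 12152 genes tested, and this was *Rspo1* at a log2 ratio of stomach over esophagus of -1.75 (-2.87 to -0.75). At E19, 4 of 8 differed, beside 10.4% of 13068 genes. These were *Rspo3* at 3.46 (2.81 to 4.18), *Rspo2* at 1.80 (0.88 to 2.82), *Rspo1* at -1.03 (-1.87 to -0.23) and *Lgr5* at -2.04 (-3.61 to -0.72), the last with 5 against 25 UMIs. Of those 25 UMIs of *Lgr5*, 1 cell held 9. The esophageal level of 3.58 CPM lay within the interval of *Lgr5* in immune cells (1.46 to 5.23). In pups, 0 of 2 differed, beside 9.42% of 7105 genes. The median log2 ratio of the members was -0.07 at E15, -0.29 at E19 and -0.01 in pups, beside 0.11, 0.14 and 0.07 over all genes. *Rspo3* itself was 0.41 (0.03 to 0.79) at E15 and 0.13 (-0.51 to 0.77) in pups, so the 2 organs differed in it by at least 2-fold at E19 alone of these 3 stages, and the *Rspo1* difference at E19 was -0.96 when the CPM of single cells was averaged.

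The rest of the pathway was taken from a list of 28 genes, of which 27 were measured (*Rspo4* was not analysed here). In the same stroma comparison, 4 of 24 listed genes with enough UMIs differed at E15, 7 of 25 at E19 and 0 of 17 in pups, beside 8.29%, 10.4% and 9.42% of all genes, with medians of 0.19, 0.07 and 0.02. *Dkk2*, a secreted antagonist of the WNT co-receptors Lrp5 and Lrp6, was higher in the stomach at E15 (1.45, 1.07 to 1.84) and E19 (3.12, 2.62 to 3.66), at 56.3 against 20.5 CPM and 44.6 against 5.01. In pups it had 9 and 6 UMIs (1.01, -0.53 to 2.64), and adult stroma of the 2 organs could not be compared here. *Sfrp4*, a secreted protein that binds WNTs, was likewise higher in the stomach at E15 and E19 (3.00 and 2.31). *Tnfrsf19*, a receptor that is a WNT target in the gut, was lower at both stages (-2.89 and -2.17), as was *Ccnd1* (cyclin D1) at E15 (-1.18), and *Ascl2* (-1.80), a transcription factor of intestinal stem cells, and *Nkd1* (-1.25), a feedback inhibitor, at E19. *Cd44* (1.59), an adhesion molecule, and *Smoc2* (1.24), a matrix protein, were higher in the E19 stomach.

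Between E15 and pups, the summed CPM of stromal *Rspo3* was higher in pups in both organs. In the pup esophagus most stromal cells were shallow, and the thinned share given above was not higher than at E15. In stomach stroma 1 of 5 members differed, beside 23.5% of 11171 genes, and this was *Rspo3* at a log2 ratio of pup over E15 of 1.24 (0.69 to 1.76). In esophagus stroma 1 of 5 differed, beside 26.1% of 11141 genes, again *Rspo3* at 1.52 (1.00 to 2.02). Both member counts are near the share over all genes. The medians of the members were 0.77 and -0.02, beside -0.05 and -0.07 over all genes. Of the pathway list, 3 of 22 differed in the stomach (*Cd44* 2.07, *Kremen1* 1.41, *Dkk2* -1.34) and 8 of 23 in the esophagus, where *Myc* (1.56), *Kremen1* (1.54), *Lrp5* (1.23) and *Cd44* (1.15) were higher and *Tnfrsf19* (-2.61), *Nkd1* (-1.68), *Ccnd1* (-1.51) and *Pygo2* (-1.05) lower in pups. *Kremen1* is a receptor of Dickkopf proteins, and *Pygo2* a nuclear partner of β-catenin.

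*Lgr4* (chr2:109917647-110014257, plus strand), the broadly used R-spondin receptor, was highest in columnar cells at E15. Columnar cells of the GE-SCJ had 137 CPM (118 to 159) at E15, 76.2 (70 to 82.9) at E19, 98.5 (91.8 to 106) in pups and 94.8 (69.7 to 126) in 19 adult cells. Those of the stomach had 153 (141 to 166), 95.8 (89.7 to 102) and 95.2 (89.6 to 101). The E15 intervals lay above those of E19 and pups in both regions, with log2 ratios of E19 over E15 of -0.86 (-1.10 to -0.61) in the GE-SCJ and -0.68 (-0.83 to -0.53) in the stomach. Squamous cells had 55, 50.1, 109 (83.3 to 139) and 28.4 (22.8 to 34.8) CPM in the esophagus over the 4 stages, and 68.6, 42.5, 73.2 and 25.2 (17.9 to 34.4) in the GE-SCJ. In the main squamous label of the esophagus, pup cells thus had the highest and adult ones the lowest levels. The 29 pup cells with the second squamous label stood at 19.9 CPM (8.6 to 39.2), and with both labels joined, an alternative chosen after the data were seen, the pup level was 72 CPM. In the adult over the pup the log2 ratio was -1.94 (-2.42 to -1.46) in the esophagus and -1.53 (-2.17 to -0.90) in the GE-SCJ. Mitochondrial, ribosomal protein and hemoglobin genes took 40.5% of the UMIs of pup squamous cells in the GE-SCJ, against 30.5% at E15, and with a total that omits them the *Lgr4* level was 181 CPM in the pup esophagus and 123 in the pup GE-SCJ.

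**Figure D3:**
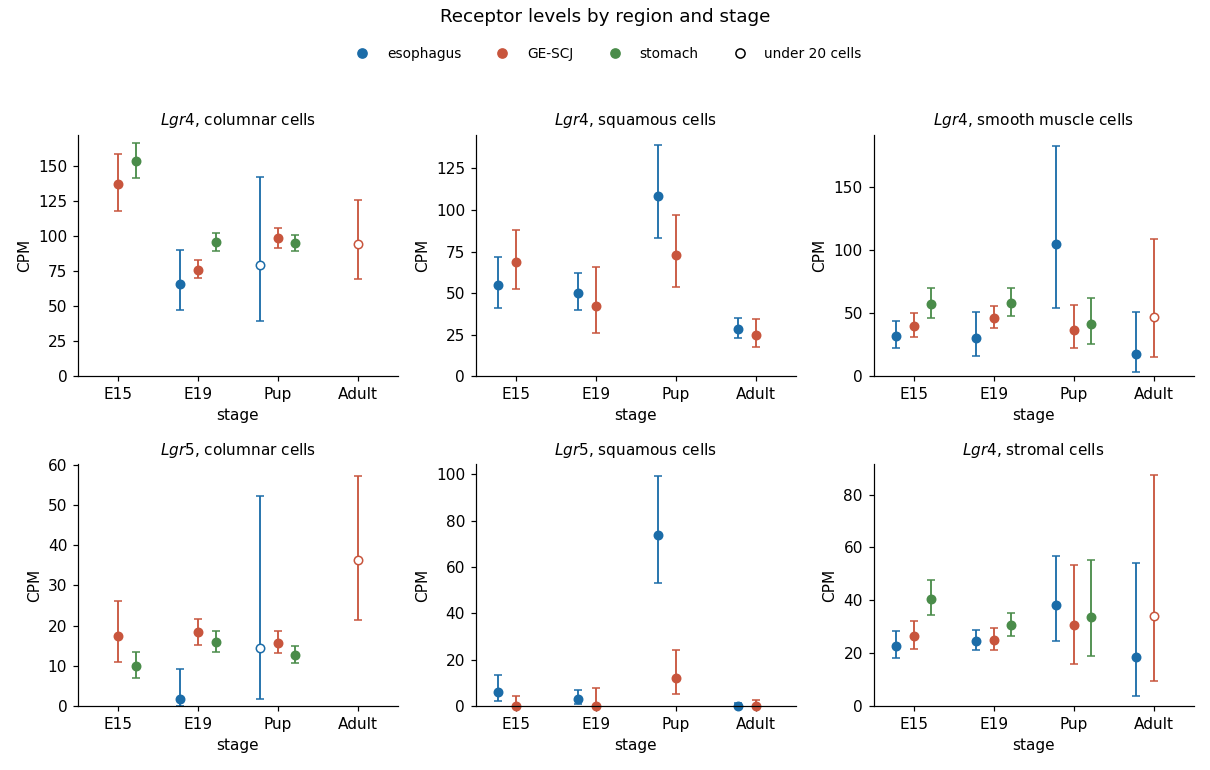
CPM (y axes, linear) of *Lgr4* in columnar, squamous, smooth muscle and stromal cells and of *Lgr5* in columnar and squamous cells, by stage (x axes) and region (colors). Points are pooled groups, bars are 95% Poisson intervals, open points are groups of under 20 cells, and groups of under 10 cells are not drawn. *Lgr5* in squamous cells stands at 73.6 CPM in the pup esophagus and at 12.2 CPM or less in the other squamous groups drawn.

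*Lgr5* (chr10:115450311-115587780, minus strand) was present in columnar cells of every stage of the GE-SCJ and stomach. The GE-SCJ had 17.4 CPM (11 to 26.1) at E15, 18.3 (15.3 to 21.7) at E19 and 15.7 (13.1 to 18.7) in pups, from 14 of 53, 48 of 274 and 66 of 291 positive cells. The stomach had 9.84 (6.96 to 13.5), 15.9 (13.5 to 18.7) and 12.6 (10.6 to 14.8), from 26 of 140, 53 of 366 and 67 of 351 cells. The log2 ratio of GE-SCJ over stomach was 0.84 (0.05 to 1.61) at E15, 0.20 (-0.15 to 0.55) at E19 and 0.32 (-0.03 to 0.67) in pups, so only the E15 interval excluded 0. The thinned shares were 9.62%, 6.02% and 6.34% in the GE-SCJ and 3.6%, 6.67% and 7.04% in the stomach, each above the 1.19% (0.245 to 3.43) of immune cells. The 3.6% of the E15 stomach was close to the upper end of that interval.

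In squamous cells *Lgr5* stood out in 1 group, the pup esophagus. There 22 of 56 cells held 42 UMIs, which is 73.6 CPM (53 to 99.4), or 39.3% of cells (27.7% thinned). The E15 and E19 esophagus had 6.11 (2.24 to 13.3) and 3.02 CPM (0.98 to 7.04), from 6 of 64 and 4 of 120 cells, and their thinned shares of 1.72% and 1% were near the 1.19% of immune cells. None of 232 adult esophageal cells held a UMI, which allows a share of cells with a UMI of up to 1.29%, not of cells expressing the gene, and puts the adult level at least 78.7-fold below the pup level at 3 counts. In the GE-SCJ none of 47 squamous cells at E15, none of 30 at E19 and none of 86 in adults held a UMI, and 3 of 44 pup cells held 8 UMIs, 6 of them in 1 cell (12.2 CPM, 5.27 to 24.1). The other labels of the pup esophagus held few UMIs, with 0 in 39 immune, 22 smooth muscle and 24 neural cells, 2 in 10 columnar and 1 in 6 second stromal cells. The 151 shallow stromal cells held 4 UMIs, which at 6.37 CPM (1.74 to 16.3) was the highest value of the 10 stromal groups with at least 20 cells. The 29 cells there with the second squamous label also held none, a level at least 9.85-fold lower. With both squamous labels joined, an alternative chosen after the data were seen, the level was 43.2 CPM.

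*Lgr6* (chr1:134983301-135105276, minus strand), the third receptor, was too sparse to be compared. Its 52 UMIs lay in 47 cells, with 17 UMIs in smooth muscle, 16 in stromal and 13 in squamous cells and 2 in 1540 columnar cells. In squamous cells of the GE-SCJ it had 4 UMIs in 47 cells at E15 and 5 in 44 cells in pups.

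*Rnf43* (chr11:87662722-87735539, plus strand) was highest at E15 and lowest in adults in squamous cells. Squamous cells of the esophagus had 52.9 CPM (39.5 to 69.4) at E15, 24.1 at E19, 26.3 in pups and 9.66 (6.56 to 13.7) in adults. Those of the GE-SCJ had 70.8 (54.5 to 90.4), 23.4, 25.9 and 11.6 (6.89 to 18.4). The E15 intervals lay above the E19 ones in the GE-SCJ and in the esophagus, with log2 ratios of -1.49 (-2.52 to -0.59) and -1.12 (-1.75 to -0.51) for E19 over E15. Columnar cells had 43.1 (32.6 to 55.8), 23.9, 17.5 and, in 19 adult cells, 40.3 (24.6 to 62.3) in the GE-SCJ, and 17.4 (13.4 to 22), 19 and 14.4 in the stomach. The E15 GE-SCJ exceeded the E15 stomach by 1.31 (0.78 to 1.84) on the log2 scale, and the 2 regions were within 0.33 of each other at E19 and in pups.

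*Znrf3* (chr11:5276324-5444847, minus strand) had a flatter course. In squamous cells it was at 27.5, 24.1, 8.76 and 9.66 CPM in the esophagus over the 4 stages, and at 42 (29.7 to 57.7), 19.1, 32 and 16.8 in the GE-SCJ. In columnar cells it was at 24.9 (17.2 to 35), 14.7, 19.6 and 24.2 in the GE-SCJ and at 18.1, 10.8 and 12.6 in the stomach. The GE-SCJ columnar level was above that of the stomach by 0.44 (0.04 to 0.85) at E19 and 0.64 (0.31 to 0.97) in pups on the log2 scale, and by 0.48 (-0.15 to 1.09) at E15. For adult esophageal squamous cells the mean of the CPM of single cells was 21.6, against 9.66 from summed UMIs.

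*Axin2* (chr11:108920349-108950783, plus strand) ranged from 8.57 to 15.6 CPM in prenatal stroma and differed more between groups of squamous cells. Prenatal stroma had 13.1 CPM (9.74 to 17.3) and 15.6 (12.8 to 18.8) in the esophagus at E15 and E19, 8.75 and 8.57 (6.34 to 11.3) in the GE-SCJ, and 11.3 and 8.77 (6.66 to 11.3) in the stomach. At E19 the esophagus lay above the other two. Adult esophageal stroma had 10 UMIs in 5 of 31 cells, 5 of them in 1 cell (61.9 CPM, 29.7 to 114). Squamous cells of the E15 GE-SCJ had 20 UMIs in 14 of 47 cells (22.1 CPM, 13.5 to 34.2), 1.51 (0.28 to 2.90) above the E15 esophagus on the log2 scale. The 30 squamous cells of the E19 GE-SCJ held none, at least 3.47-fold lower than at E15. Pup squamous cells had 17.5 CPM (8.4 to 32.2) in the esophagus and 9.15 (3.36 to 19.9) in the GE-SCJ, and adult ones 1 UMI in 232 cells and 2 UMIs in 86 cells.

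**Figure D4:**
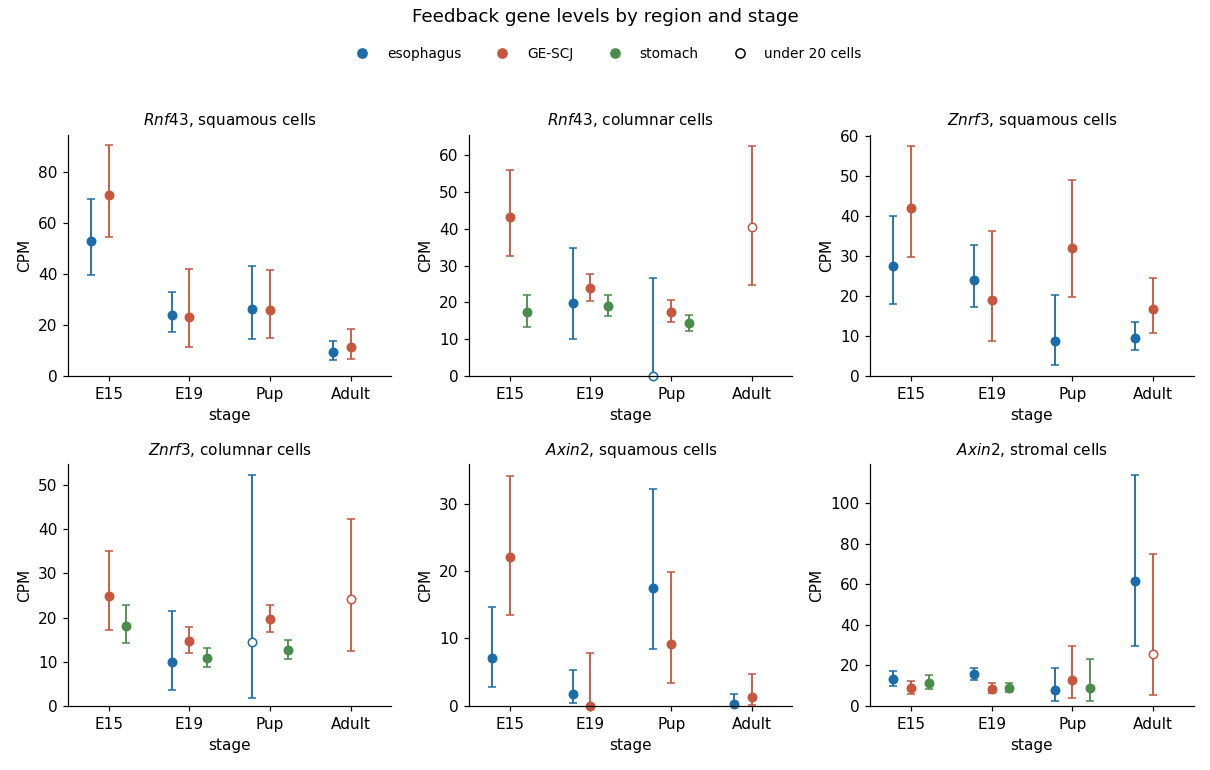
CPM (y axes, linear) of *Rnf43*, *Znrf3* and *Axin2* in the epithelia and of *Axin2* in stroma, by stage (x axes) and region (colors). Points are pooled groups, bars are 95% Poisson intervals, open points are groups of under 20 cells, and groups of under 10 cells are not drawn. *Rnf43* in squamous cells stands at 52.9 and 70.8 CPM at E15 and at 9.66 and 11.6 CPM in adults, and *Axin2* in squamous cells of the GE-SCJ at 22.1 CPM at E15 and 0 at E19.

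*Notum* (chr11:120653788-120661175, minus strand) was rare, and 1 group of cells held the most of it. Of its 50 UMIs, 29 lay in 15 of the 47 squamous cells of the E15 GE-SCJ, which is 32.1 CPM (21.5 to 46.1). Thinned, 7 of 45 cells (15.6%) were positive, against 0% of immune cells, and 1 cell held 11 UMIs, without which the level was 20.8 CPM. The 64 squamous cells of the E15 esophagus held none, at least 10.5-fold lower, and the 30 squamous cells of the E19 GE-SCJ held none, at least 5.03-fold lower. Of the others, 3 lay in the single cell with the squamous label that was tagged E15 stomach, which also held 7 UMIs of *Rnf43* and 3 of *Znrf3*, 5 in 2 smooth muscle cells of the pup GE-SCJ and 5 in 3 columnar cells of the E19 GE-SCJ. In the adult esophagus 1 of 30 smooth muscle cells held 3 UMIs (17.5 CPM, 3.61 to 51.2) and 2 of 31 stromal cells held 1 each (12.4 CPM, 1.5 to 44.7), intervals that overlapped that of the E15 GE-SCJ squamous cells. The last 3 UMIs lay in single cells of other groups.

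Within the E15 GE-SCJ squamous cells, those with *Notum* had more transcripts of dividing cells. The summed level of the proliferation markers *Mki67*, *Top2a*, *Stmn1* and *Pcna* was 1.41 (0.96 to 1.84) higher on the log2 scale in the 7 positive than in the negative cells at equal depth, and that of the squamous keratin list was 0.57 lower. At their own depth, 11 of the 15 *Notum*-positive cells also held *Rnf43*, which is 73.3% of them and 40.7% of the 27 *Rnf43*-positive cells, and 6 held *Axin2*. Of all 47 cells, 27 held *Rnf43* and 14 *Axin2*, and the positive cells were deeper, with a median of 19031 UMIs against 15749. The log2 ratio of positive over negative cells was 0.55 (-0.19 to 1.29) for *Rnf43* and 0.64 (-0.71 to 1.99) for *Axin2*. At equal depth *Rnf43* was at 0.44 (-1.60 to 2.07), and *Axin2* had 0 UMIs in positive and 7 in negative cells. No difference in either gene was detectable. Cells are not replicates, so these are descriptions of 1 pooled sample.

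At the junction itself the 2 epithelia were compared directly. At E15, 3 of 6 members with enough UMIs differed at least 2-fold between columnar and squamous cells of the GE-SCJ, beside 15% of 9146 genes. *Lgr5* was higher in columnar cells, by at least 5.24-fold since squamous cells held none, *Notum* was at least 14.2-fold lower, and *Axin2* was lower at a log2 ratio of columnar over squamous of -1.94 (-3.33 to -0.71). At E19, 1 of 5 differed, beside 24.4% of 11332 genes, again *Lgr5* at no less than 2.87-fold higher in columnar cells. In pups, 1 of 5 differed, beside 29.7% of 11464 genes, and this was *Axin2* at -1.59 (-2.82 to -0.16). *Lgr5* in pups was 0.21 (-0.76 to 1.37), and 1.58 with the top 1% of cells for this gene left out, where 1 squamous cell held 6 of 8 UMIs. *Lgr4* was 0.99 (0.57 to 1.43), 0.77 (0.15 to 1.48) and 0.40 (-0.02 to 0.85) at the 3 stages, short of 2-fold each time. The members' median was -0.73 at E15 with or without bounds for empty groups, 0.34 at E19 with them (0.46 without) and -0.64 in pups, beside 0.09, -0.02 and -0.02 over all genes.

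Most pathway genes that differed at the junction were higher in squamous cells. Of the list, 2 of 18 differed at E15, 7 of 20 at E19 and 8 of 21 in pups, beside 15%, 24.4% and 29.7% of all genes. These counts are too small to read a shift against all genes over the stages. Of the listed genes that differed, 2, 5 and 8 were lower in columnar cells, beside 545 of 1369, 1458 of 2766 and 1578 of 3404 over all genes. The list's medians were -0.11, -0.41 and -0.78. *Apcdd1*, a membrane inhibitor of WNT, was lower in columnar cells at all 3 stages (-3.09, -4.86 and -4.81), as was *Cd44* (-1.79, -2.98 and -4.34). *Kremen1* (-1.29 and -2.32) and *Smoc2* (-1.14 and -4.77) were lower at E19 and in pups, while *Ccnd1* (1.52) and *Pygo2* were at least 2-fold higher in columnar cells at E19.

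In the 2 epithelial comparisons across age that covered all genes, 0 of 5 and 0 of 3 members were at least 2-fold higher at the later stage. Over all genes 9.75% and 9.93% were, so so few members could not differ visibly from that share. Outside these comparisons, *Lgr5* was higher in squamous cells of the pup esophagus than at E15 (73.6 against 6.11 CPM). It stood at 36.3 CPM in 19 adult and 17.4 in E15 columnar cells of the GE-SCJ, with overlapping intervals. In stomach columnar cells 0 of 5 differed at least 2-fold between pup and E15, beside 33.1% of 12404 genes, and the members' median log2 ratio of -0.53 stood beside -0.41 over all genes. *Lgr4* was at -0.69 (-0.83 to -0.54) and *Lgr5* at 0.33 (-0.19 to 0.88) there. Of the pathway list 6 of 20 differed, all lower in pups, among them *Tcf7l1* (-2.05) and *Tcf7l2* (-1.33), nuclear partners of β-catenin, *Ascl2* (-1.64) and *Smoc2* (-1.30), with a median of -0.74. In esophageal squamous cells 2 of 3 members differed between adult and E15, beside 36.6% of 10392 genes, and both were lower in adults, *Rnf43* at -2.44 (-3.12 to -1.78) and *Znrf3* at -1.52 (-2.29 to -0.73), with *Lgr4* at -0.97 (-1.46 to -0.46). The *Znrf3* value was -0.20 when the CPM of single cells was averaged. All genes had a median of -0.50 in that comparison and the members of -1.52. Of the list 8 of 19 differed, with *Tcf7l1* (-2.29), *Smoc2* (-2.22), *Bcl9* (-1.86) and *Tcf7l2* (-1.73) lower and *Cd44* (3.24) higher in adults, and a median of -0.69.

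*Lgr5*-positive columnar cells differed in makeup from the other columnar cells. After thinning, 5, 16 and 18 cells of the GE-SCJ and 5, 23 and 24 cells of the stomach at E15, E19 and in pups held *Lgr5*. The summed level of the genes *Gkn1*, *Gkn2*, *Tff1* and *Muc5ac* of pit cells, which line the gastric surface, was lower in positive cells in 6 of 6 groups. The log2 ratios were from -4.52 to -2.24, and 6 of 6 intervals lay below 0. At the cells' own depth they were from -5.12 to -0.39, again with 6 intervals below 0. At equal depth *Tff1* alone of the list had its interval below 0 in the E15 GE-SCJ (-3.17), E19 GE-SCJ (-2.96) and E15 stomach (-2.63). *Gkn1* and *Gkn2* did so too in the E19 stomach and the pup GE-SCJ. The summed level of the endocrine genes *Chga*, *Chgb* and *Ghrl* was lower in 5 of 6 groups with the interval below 0. At equal depth *Ghrl* alone of this list had its interval below 0 in the E19 GE-SCJ (-4.71) and E15 stomach (-3.41). In the pup GE-SCJ both *Ghrl* (-2.65) and *Chga* (-3.01) did. The summed level of the neck and chief cell genes *Muc6*, *Pgc*, *Cblif* and *Tff2* was higher in positive cells of the stomach at E19 (1.06, 0.93 to 1.19) and in pups (1.35, 1.32 to 1.38). It was lower in the GE-SCJ at E15 (-1.24) and E19 (-1.38), and higher in the pup GE-SCJ (0.49). At E15 in the stomach the 5 positive cells gave 3.29, against 0.47 at the cells' own depth. The genes of this list did not move together. In the E19 GE-SCJ *Pgc* (-1.91) and *Tff2* (-2.54) were lower, *Cblif* was higher (2.35, 1.81 to 2.86) and *Muc6* was at 0.14 (-1.34 to 1.32). In the E15 GE-SCJ only *Tff2* (-1.87) had its interval below 0. Proliferation genes were higher with the interval above 0 in 3 of 6 groups, with the rest between -0.22 and 0.37. The general columnar list, which shares *Tff1* and *Gkn2* with the pit list, was lower in positive cells in 6 of 6 groups, with 5 intervals below 0. Of its other genes, *Krt8* was lower in the GE-SCJ at E15 (-1.66), E19 (-1.26) and in pups (-0.92). *Agr2* was higher in the E15 GE-SCJ (1.10, 0.22 to 1.90), the E15 stomach (1.38, 0.96 to 1.77) and the pup GE-SCJ (0.28, 0.12 to 0.44), and lower in the E19 GE-SCJ (-0.46, -0.86 to -0.08). The squamous list was above 0 by its interval in 1 group, the pup GE-SCJ (1.28, 0.54 to 1.95), where *Krt14* was at 4.25 (2.65 to 5.91) and *Krt5* at 2.77 (1.09 to 4.27), both keratins of basal squamous cells. At the cells' own depth there *Krt14* was at 3.24, *Krt5* at 1.92 and *Trp63*, a transcription factor of basal squamous cells, at 2.96, each with the interval above 0. Whether squamous RNA or mixed cells had a part in this was not tested.

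**Figure D5:**
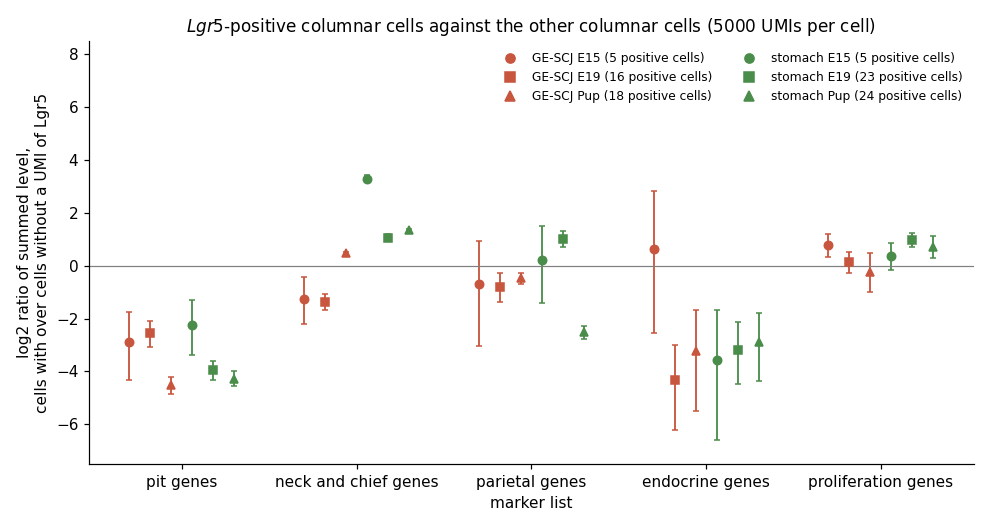
Log2 ratio (y axis) of the summed level of 5 marker lists (x axis) in columnar cells with over columnar cells without a UMI of *Lgr5*, each cell thinned to 5000 UMIs. Points are the 6 groups (color for region, shape for stage), and bars are 95% counting intervals. All 6 points of the pit list lie between -4.52 and -2.24.

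The same cells held more *Znrf3*, *Rnf43* and *Axin2*. *Notum*, the other feedback gene, was too sparse to compare, with 3 UMIs in positive and 4 in negative cells at own depth. At their own depth, where more cells can be used, *Znrf3* was higher in *Lgr5*-positive cells in 6 of 6 groups with every interval above 0, *Rnf43* in 6 of 6 (4 intervals above 0) and *Axin2* in 6 of 6 (3 intervals above 0). In the E19 GE-SCJ the log2 ratios were 1.33 (0.74 to 1.92) for *Znrf3*, 1.32 (0.86 to 1.78) for *Rnf43* and 2.83 (1.48 to 4.29) for *Axin2*, and in the E19 stomach 1.59, 1.35 and 2.31. *Tnfrsf19* was higher in 6 of 6 groups (5 intervals above 0), up to 3.78 (3.00 to 4.63) in the E19 GE-SCJ. *Lgr4* had no one direction, since it was higher with the interval above 0 in 3 groups and lower in the 2 pup groups, at -0.35 in the GE-SCJ and -0.47 in the stomach. At equal depth 5 *Axin2* UMIs were left in positive cells in all, and the intervals above 0 numbered 2 of 6 for each of the 3 feedback genes. Of the 127 *Axin2*-positive columnar cells 64 (50.4%) held *Lgr5*, and 22.1% of the 289 *Lgr5*-positive ones held *Axin2*. Of all 1540 columnar cells 18.8% held *Lgr5* and 8.25% held *Axin2*. These shares are at the cells' own depth, and deeper cells show both genes more often.

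The *Lgr5*-positive squamous cells of the pup esophagus showed no marker list that differed at equal depth, where no interval of 8 lists excluded 0. In the 13 positive against the 34 negative cells at equal depth, the squamous list was at 0.14 (-0.03 to 0.32), the proliferation list at 0.05 (-0.55 to 0.62) and *Lgr4* at 0.56 (-0.80 to 1.82) on the log2 scale. Of single genes, *Trp63* was higher (0.80, 0.11 to 1.48) and *Krt5* lower (-0.57, -1.13 to -0.05) at equal depth. At the cells' own depth 4 of the 8 intervals excluded 0, with the squamous list at 0.34 (0.24 to 0.44), the pit list at -0.50 (-0.83 to -0.18), the neck and chief list at -0.41 (-0.66 to -0.16) and the columnar list at -0.30 (-0.58 to -0.01).

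*Rspo3*-positive stromal cells were compared with *Rspo3*-negative ones in the same way over 9 groups. The list of subepithelial fibroblast markers (*Foxl1*, *Pdgfra*, *Bmp4* and *Bmp5*) was lower in positive cells with the interval below 0 in 5 groups and above 0 in 1, which had a single positive cell, and stood at -0.82 in the E19 GE-SCJ. *Foxl1*, a transcription factor of the fibroblasts just beneath the epithelium, was at -2.09 in the E15 and -1.17 in the E19 GE-SCJ. Over 8 groups its interval lay below 0 in 2 at equal depth and in 5 at the cells' own depth. *Pdgfra* of the same list had no such direction. Over 9 groups its interval lay above 0 in 1 and below 0 in 0 at equal depth, and at own depth above 0 in 3 and below 0 in 3. The CD34 fibroblast list was lower in 5 groups and above 0 by its interval in none. Pericyte markers were higher with the interval above 0 in 4 groups and lower in 1, and the smooth muscle list was higher in 4 and lower in 3.

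Over the 55 groups of label, region and stage with at least 20 cells, the genes most like each member by Pearson's r of log2(CPM + 10) were listed from 13555 genes. The groups share 1 library and differ in depth, so r is a description. *Rspo3* was most like *Kcnj8* (r = 0.94), *Pdlim3* (0.90) and *Fendrr* (0.87), of which *Kcnj8* is a potassium channel subunit of pericytes and *Fendrr* a noncoding RNA of lateral mesoderm. *Rspo1* was most like *Wt1* (0.90) and *Lrrn4* (0.87), both mesothelial genes, and A730046J19Rik (0.86), and *Rspo2* like *Armh4* (0.78), *Slitrk4* (0.77) and *Klf14* (0.74). *Rnf43* followed the epithelial genes *Cdh1* (0.90), which encodes E-cadherin, *Fermt1* (0.89) and *Sox21* (0.88). *Lgr4* was most like *Pla2g12a* (0.77), *Tmem98* (0.72) and *Mrps35* (0.69), and *Lgr5* like 9530036O11Rik (0.67), *Ovol2* (0.66) and *Sectm1b* (0.66). *Axin2* was most like *Slc4a3* (0.84), *Fxyd1* (0.76) and *Map1a* (0.75), and *Znrf3* like *Acsl3* (0.73), *Zfp317* (0.65) and *Pdgfa* (0.65). With groups of at least 50 cells, 1 of the 3 genes named for *Rspo3*, 2 of those for *Lgr5* and 1 of those for *Rnf43* stayed among the first 3, and 0 of those for the other 5 members.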

How the data were processed

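Single cells of mouse esophagus, GE-SCJ and stomach were measured with 10x Genomics 3′ sequencing and CellPlex tags. Per the study's methods, the authors aligned and demultiplexed the reads with Cell Ranger 6.1.1 (multi pipeline, 10x mouse reference on GRCm38) and removed barcodes with very few or very many genes, very many UMIs or a high mitochondrial share. The deposited matrix holds raw UMI counts for 7808 cells, and the authors' table gives for each cell the tag, the label and the mitochondrial percent, which reached 19.7%. The 2 deposited samples are the expression and the tag library of the same 7808 cells. No further doublets were removed, and the file of tag sequences was not used.

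UMIs were summed per label and tag without further normalization than the total. CPM have exact 95% Poisson intervals and shares exact Clopper-Pearson intervals. A log2 ratio has 1 UMI added to each sum and an exact interval conditional on both counts. A sum of 0 is given with the level of 3 counts. With 1 pooled sample per region and stage no test was run. Genes with at least 20 UMIs and a 2-fold difference were counted as different. The ratio and its interval were also run on simulated Poisson counts, the model that the interval assumes. Those counts had no spread between cells or mice, so the run could not check the intervals against such spread. Depth per group limits precision as the intervals show. PCR duplicates were collapsed by UMI.

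The text names all 10 members, at most 4 listed pathway genes in each direction per comparison, and the 3 genes most like each member with at least 200 UMIs. Members, lists and tests were chosen with earlier results of these data known, and comparisons of the GE-SCJ with its neighbours, of consecutive stages and of labels were chosen after the values were seen. Gene positions are those of GENCODE on GRCm38. Alternatives were another averaging, depth filter, library size, label check, thinning and count limit. Sums were made with pandas 2.3.3 and numpy 2.4.6, intervals with scipy 1.17.1 and plots with matplotlib 3.10.9, in Python 3.11.15.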

Additional observations from a re-analysis of the deposited data

Results flagged for a closer look

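*Lgr4* in smooth muscle cells pointed opposite ways between stages when the stomach was set against the esophagus. The log2 ratio of stomach over esophagus was 0.831 (0.27 to 1.42) at E15 and 0.864 (0.08 to 1.75) at E19, and -1.4 (-2.43 to -0.30) in pups, and each interval excluded 0. The difference between stages was not tested, since each stage was 1 pooled sample. The pup value rests on 12 UMIs in 8 of 22 esophageal cells (105 CPM) against 23 UMIs in 113 stomach cells (41.2 CPM). It was found among 21 contrasts of each of the 10 members.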

How the results depend on the processing

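No paired analysis was possible because each region and stage was 1 pooled sample. Of 14 member ratios past 2-fold, 80 alternative values had the same sign, and 12 ratios stayed past 2-fold in each; the other 2 were *Rspo1* of E19 stroma and *Znrf3* of adult squamous cells, given above. Counting limits, which set it directly, moved the number of genes past 2-fold most. Averaging the CPM of single cells or another library size moved it less. With averaging it went from 3800 to 2956 for adult over E15 squamous cells. With the other library size it went from 3404 to 3834 for columnar over squamous cells in pups. With at least 100 UMIs, with 1 UMI and with 4-fold differences it was 343, 4029 and 417 for columnar over squamous cells at E15, 1368, 6947 and 773 at E19, and 1842, 6793 and 1116 in pups. For stomach over esophagus stroma it was 426, 3066 and 253 at E15, 716, 3652 and 383 at E19, and 99, 3678 and 87 in pups. For pup over E15 it was 2606, 6606 and 1178 in stomach columnar cells, 1135, 6140 and 591 in stomach stroma and 1323, 5758 and 740 in esophagus stroma, and for adult over E15 squamous cells 1550, 6810 and 1192. The main counts were 1369, 2766, 3404, 1007, 1354, 669, 4111, 2622, 2905 and 3800 in the same order. At the cells' own depth the log2 ratio of the parietal list in *Lgr5*-positive E19 stomach cells was -0.59, against 1.01 thinned, and that of the smooth muscle list in *Rspo3*-positive E19 esophagus stroma 0.84, against -1.74 thinned in 5 cells. The cause was not tested. The label was the class of the marker genes in 93.4% of cells, and 40 of 478 adult cells lay among prenatal cells. A total that omits hemoglobin, ribosomal protein and mitochondrial genes moved all log2 ratios of the pup columnar and squamous comparison by -0.33, and those of the other comparisons by -0.09 to 0.01. Depth limits *Lgr6*, *Notum* and the adult groups most.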

Other observations

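Neural cells of the gut wall held transcripts of *Lgr4*, *Axin2* and *Znrf3* but few of the ligands. The other receptors and feedback genes were low there. *Rnf43* was at 1.34 CPM (1.86 in immune cells), *Lgr6* at 0.801, and *Notum* had 0 UMIs. *Lgr5* at 3.74 (2.04 to 6.27) overlapped immune cells (1.46 to 5.23). *Lgr4* was at 48.9 CPM (42 to 56.5), *Axin2* at 18.7 (14.6 to 23.6) and *Znrf3* at 16.3 (12.5 to 20.9), against 14.1, 1.86 and 9.03 in immune cells, with log2 ratios of neural over immune of 1.78 (1.33 to 2.24), 3.16 (2.10 to 4.42) and 0.83 (0.21 to 1.47). The E15 esophagus had 28.9 CPM (18.5 to 43) of *Axin2* in 20 of 88 neural cells, and the E15 stomach 17 (9.73 to 27.6) in 15 of 72. *Rspo1*, *Rspo2* and *Rspo3* had 1, 6 and 4 UMIs in 419 neural cells.

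The few adult columnar cells of the GE-SCJ had the highest *Lgr5* level of the GE-SCJ columnar groups. The 19 cells held 18 UMIs in 7 cells (36.3 CPM, 21.5 to 57.4), an interval that overlapped those of E15 and E19, and of them 10 lay among prenatal cells by their expression. Without those the remaining 9 cells held 15 UMIs (80.1 CPM, 44.8 to 132). After thinning to 5000 UMIs, 1 of 18 cells was positive. Both *Lgr4* (1.91, 1.27 to 2.55) and *Rnf43* (1.79, 0.82 to 2.76) were higher in these columnar cells than in adult GE-SCJ squamous cells on the log2 scale.

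In columnar cells of the pup stomach *Rspo1* had 17 UMIs in 5 of 351 cells, 7 of them in 1 cell.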
